A study of Mus musculus and Homo sapiens with 47 samples.

Results

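The report covers 32 human genes of cholesterol synthesis, of the delivery and export of cholesterol, and of the machinery that senses sterols. They are listed by their known place in the pathway, a rule that uses no measured value, although earlier results of these data were known when the list was drawn up. All 32 are among the 25369 genes of the RNA count table of SUDHL10, a human B cell lymphoma line, and all 32 were among the 15278 genes with enough counts to be tested. By role they are 7 enzymes from acetyl-CoA to farnesyl diphosphate and the branch enzyme GGPS1, 12 squalene and sterol enzymes, 4 sensing genes, 4 genes of uptake and transport inside the cell, and 4 genes of efflux and its nuclear receptors.

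Cells make cholesterol from acetyl-CoA through mevalonate, farnesyl diphosphate, squalene and lanosterol. When sterols in the endoplasmic reticulum are low, SCAP escorts the transcription factor SREBP2 to the Golgi, where it is cleaved. The released fragment switches on nearly every enzyme of the route, together with INSIG1, which holds SCAP back, and with SREBF2, the gene of SREBP2 itself. When sterols are high, oxysterols activate the LXR receptors (NR1H2 and NR1H3), whose targets ABCA1, ABCG1 and MYLIP export cholesterol or limit its uptake.

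The series addresses loss of Polycomb repressive complex 2 (PRC2), which puts the silencing mark H3K27me3 on histone H3. UNC1999 inhibits its methyltransferases EZH2 and EZH1, and MAK683 binds its subunit EED. SUDHL10 cells were given either compound at 5 uM, and RNA was counted in 2 libraries of UNC1999 at each of days 1, 3, 5 and 6, in 1 library of MAK683 at each of days 1, 3 and 5, and in 2 untreated libraries of day 5. The labels name no vehicle for the untreated cells. They speak of biological replicates but mention no separate cultures, and p-values therefore rest on how far these libraries differ from each other, which may be technical in part. Because the untreated libraries are all of day 5, compound and time in culture cannot be told apart in comparisons of days 1, 3 and 6 with them. The comparison of the compounds on the same day does not use the untreated libraries and is given first. For each single MAK683 library the spread was taken from the other groups, on the assumption that it varies as they do.

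The libraries held 26234896 to 39315662 counts, with counts in 14839 to 16758 genes and 17% to 20.7% of counts in the 100 largest genes. All 8 B cell markers were counted in every library, summing to 3862 and 3891 CPM (counts scaled to library size) untreated, 2727 to 4176 CPM with UNC1999, and 2471, 2261 and 4527 CPM with MAK683 at days 1, 3 and 5. Summed myeloid markers stayed between 4.6 and 9.66 CPM, T cell markers between 0.103 and 11.4 CPM, epithelial markers at or under 5.43 CPM and erythroid markers at or under 1.21 CPM. Fibroblast markers summed to 5.33 to 47.3 CPM, nearly all from DCN. The part of these marker levels in the results was not tested. The MAK683 library of day 5 stood apart from the earlier ones: over all tested genes its closest library was an untreated one (r = 0.963 across genes), whereas the MAK683 library of day 1 was closest to a UNC1999 library of the same day (r = 0.984). Results for MAK683 at day 5 rest on that single library.

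At equal dose and day, the synthesis genes were far higher with UNC1999 than with MAK683. Summed over the 19 enzymes (the 7 mevalonate enzymes and the 12 squalene and sterol enzymes), RNA came to 6386 and 6397 CPM in the UNC1999 libraries of day 1 and 2298 CPM in the MAK683 library, with 3710 and 3922 CPM in the untreated ones. At day 3 the sums were 4122 and 3807 CPM against 2488 CPM, and at day 5 they were 4461 and 4635 CPM against 2481 CPM. On each of these days both UNC1999 libraries lay above the MAK683 library, and on each day the MAK683 library lay below both untreated ones. In bulk RNA, less RNA per cell and fewer cells that express a gene cannot be told apart.

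**Figure D1:**
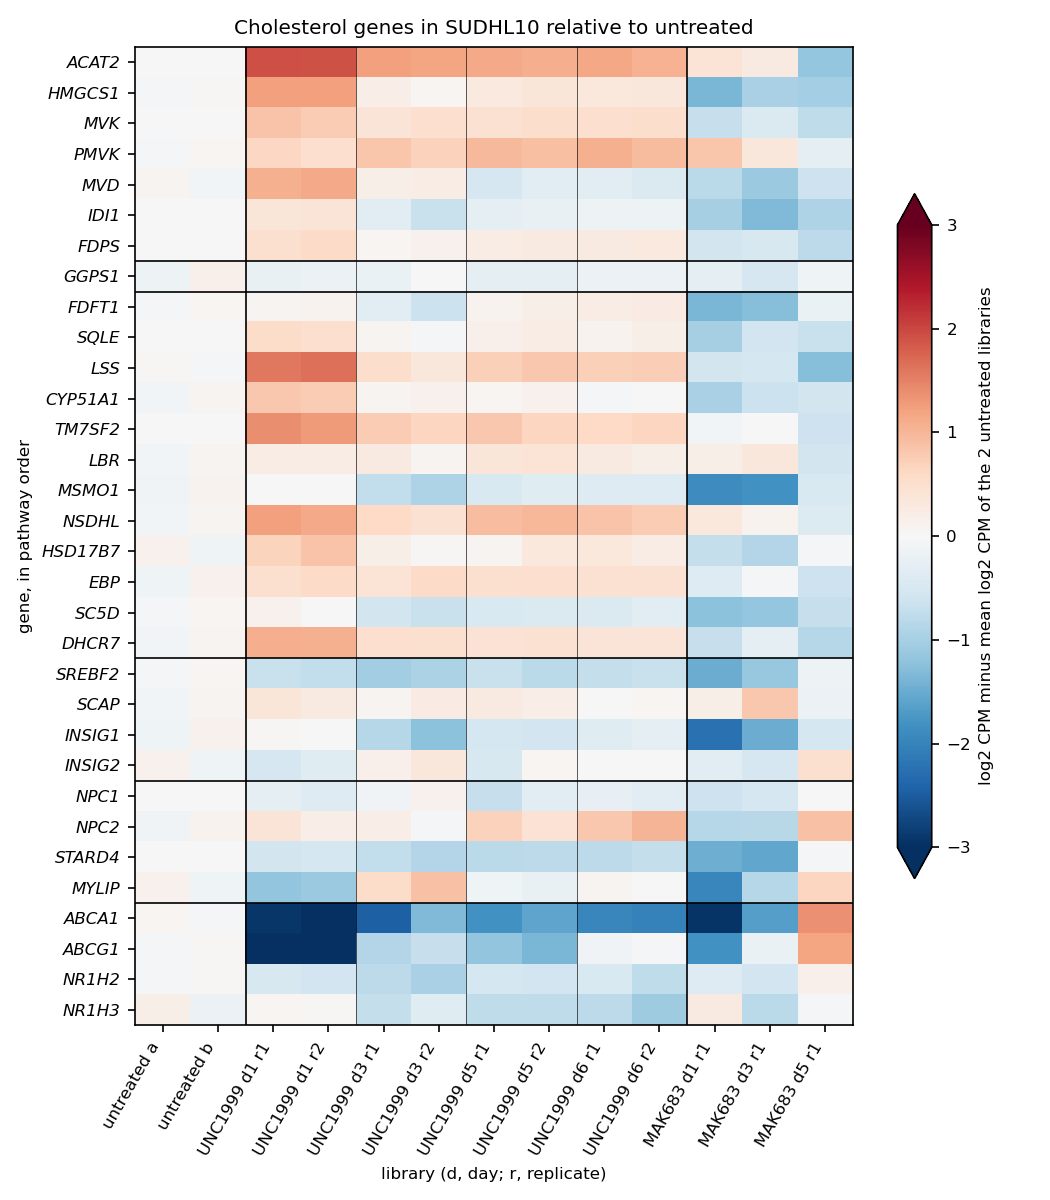
Level of each of the 32 genes (rows, in pathway order) in each of the 13 libraries (columns), as log2 CPM minus the mean of the 2 untreated libraries. Colours run from lower (blue) to higher (red) and saturate at 3 in either direction, which ABCA1 and ABCG1 reach; the UNC1999 libraries of day 1 and the MAK683 libraries differ in most synthesis rows.

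At day 1, 22 of the 32 genes were higher with UNC1999 than with MAK683 and 1 was lower, where 4.40% of all tested genes were higher and 3.65% lower (8.05% in either direction). The members' median log2 difference was 1.12, against 0 over all tested genes. Of the 19 synthesis enzymes 17 were higher and none lower by edgeR's quasi-likelihood test, with a median of 1.48; PMVK and LBR were the other ones, and at an unadjusted p under 0.05 PMVK was the 1 enzyme lower. At day 3, 25 members were higher and 2 lower, against 10.8% and 11.8% of all genes (22.6% in all), and the median was 0.64. At day 5 the compounds differed at 52.1% of all genes, 26.4% higher and 25.7% lower, so that a call there is common; 16 members were higher and 9 lower, with a median of 0.30 against 0.02 over all genes. Among synthesis enzymes 18 were higher at day 3 and 15 at day 5, with 0 lower on either day, also at an unadjusted p under 0.05, and their medians were 0.75 and 1.04.

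In all, 13 of the 32 genes were higher with UNC1999 on all 3 days, and all 13 are synthesis enzymes. Over all 15278 tested genes, 116 (0.759%) were higher on all 3 days. The 13 were ACAT2, HMGCS1, MVK, IDI1, FDPS, FDFT1, SQLE, LSS, CYP51A1, TM7SF2, NSDHL, EBP and DHCR7. Of the 12 genes of sensing, transport and efflux, 5 were higher and 1 lower at day 1, 6 higher and 2 lower at day 3, and 1 higher and 9 lower at day 5.

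**Figure D2:**
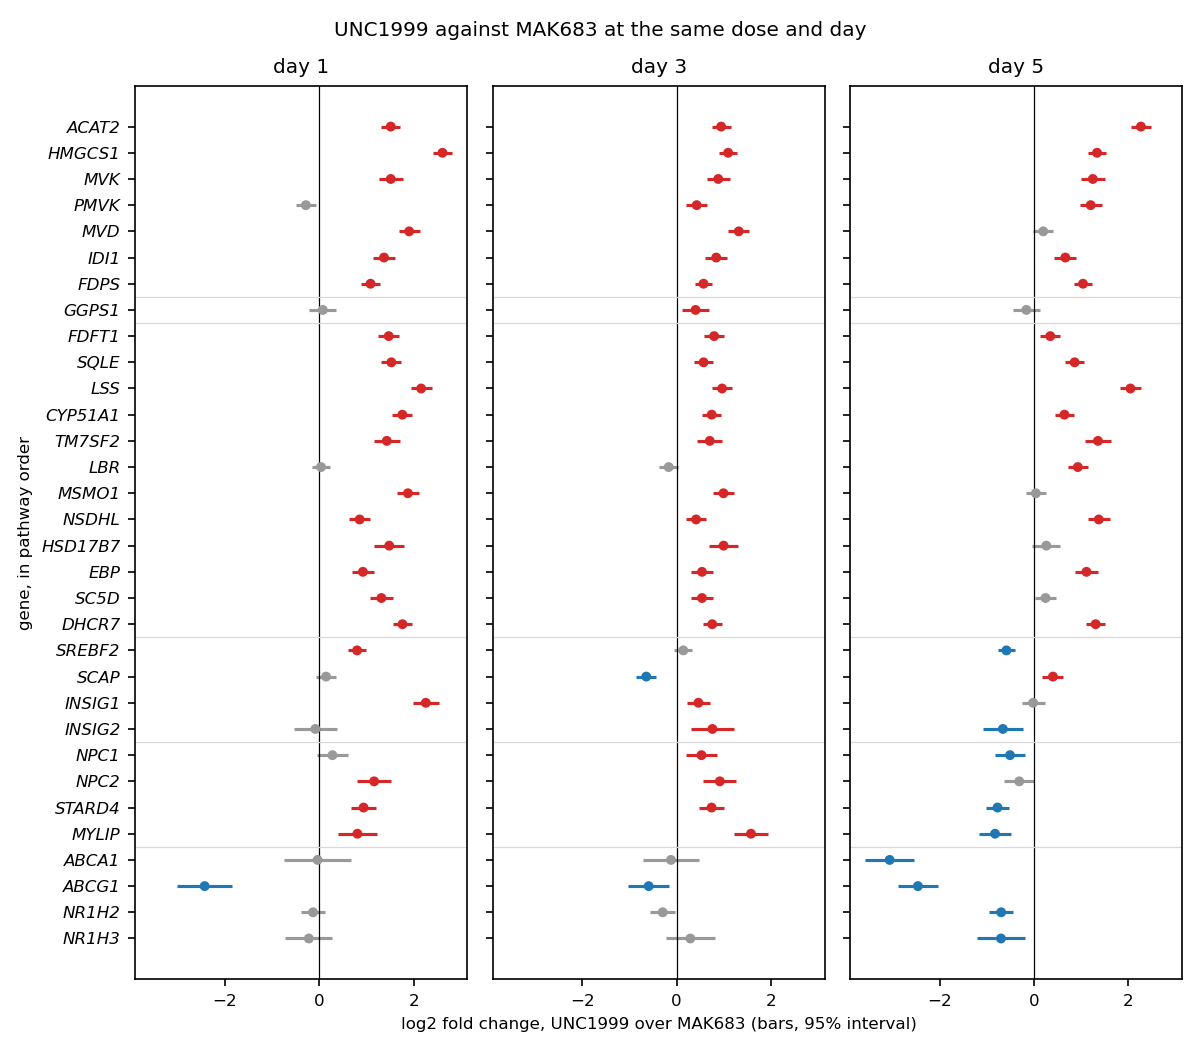
Difference between UNC1999 and MAK683 (log2 fold change, horizontal axis) for each gene at days 1, 3 and 5, with 95% intervals. Red points are higher with UNC1999 and blue points lower at an adjusted p under 0.05, and grey points did not pass; synthesis genes lie to the right of 0 on most days, and ABCA1 and ABCG1 lie far to the left at day 5.

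Of the 7 mevalonate enzymes, 6, 7 and 6 were higher with UNC1999 than with MAK683 at days 1, 3 and 5. HMGCS1, which condenses acetoacetyl-CoA and acetyl-CoA to HMG-CoA, was at 578 and 599 CPM untreated, at 1391 and 1380, 672 and 612, 720 and 753, and 737 and 745 CPM with UNC1999 at days 1, 3, 5 and 6, and at 227, 301 and 292 CPM with MAK683 at days 1, 3 and 5. Every UNC1999 library lay above both untreated libraries and every MAK683 library below them. The direct difference at day 1 was 6.10-fold (log2 2.61, SE 0.10, adjusted p = 1.01e-14), the largest of the 32 genes on that day, with 2.13-fold at day 3 and 2.52-fold at day 5.

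ACAT2, the thiolase that makes acetoacetyl-CoA, was at 79.2 and 80.6 CPM untreated, at 308 and 298, 188 and 181, 175 and 170, and 178 and 165 CPM over the UNC1999 days, and at 106, 96.0 and 36.0 CPM with MAK683. The UNC1999 libraries were again the highest, and MAK683 lay above the untreated libraries at days 1 and 3 but below them at day 5. UNC1999 exceeded MAK683 2.86-fold, 1.92-fold and 4.80-fold at days 1, 3 and 5. The ACAT2 gene overlaps TCP1 on the other strand and the kit does not mark strand, so their reads cannot be fully told apart. TCP1 was at 251 and 293 CPM untreated, 411 to 486 CPM with UNC1999, and 519, 533 and 247 CPM with MAK683, and it did not differ between the compounds at day 1 (log2 -0.24, adjusted p = 0.18), whereas at day 5 it was higher with UNC1999 (log2 0.86).

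MVD, which decarboxylates mevalonate diphosphate, was at 184 and 166 CPM untreated, at 366 and 386 CPM with UNC1999 at day 1, at 198 and 204 CPM at day 3, and at 123 and 137 CPM at day 5. With MAK683 it was at 101, 80.9 and 114 CPM. The gap therefore closed: UNC1999 was 3.74-fold above MAK683 at day 1 and 2.49-fold at day 3, and at day 5 the difference did not pass (log2 0.20, 95% interval -0.01 to 0.41). The kinase MVK was higher with UNC1999 by 2.86-fold, 1.84-fold and 2.37-fold, the isomerase IDI1 by 2.59-fold, 1.79-fold and 1.58-fold, and the farnesyl diphosphate synthase FDPS by 2.12-fold, 1.48-fold and 2.05-fold. PMVK, which adds the next phosphate after MVK, did not pass at day 1. It was at 85.4 and 79.1 CPM with UNC1999 and 100 CPM with MAK683 at day 1 (log2 -0.28, 95% interval -0.50 to -0.07, adjusted p = 0.1), and it was higher with UNC1999 at day 3 (1.34-fold) and day 5 (2.3-fold). GGPS1, which diverts farnesyl diphosphate to geranylgeranyl diphosphate, lay between 28.4 and 44.7 CPM in all 13 libraries. Its difference between compounds was log2 0.07 at day 1 (95% interval -0.21 to 0.36) and -0.16 at day 5 (-0.44 to 0.12); it passed at day 3 (log2 0.40) but not without UNC1999 replicate 2 of that day (log2 0.31, adjusted p = 0.17).

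LSS, which closes squalene epoxide to lanosterol, had the largest difference between the compounds of the 12 squalene and sterol enzymes at days 1 and 5, though not at day 3. It was at 185 and 175 CPM untreated, at 537 and 561, 258 and 227, 294 and 315, and 295 and 298 CPM with UNC1999 at days 1, 3, 5 and 6, and at 123, 125 and 73.9 CPM with MAK683. The groups did not overlap: all UNC1999 libraries were above the untreated ones and all MAK683 libraries below. UNC1999 was 4.46-fold above MAK683 at day 1 (log2 2.16, SE 0.11) and 4.12-fold at day 5 (log2 2.04, SE 0.11), with 1.95-fold between them at day 3. FDFT1, which makes squalene, differed 2.77-fold, 1.74-fold and 1.27-fold over days 1, 3 and 5, and SQLE, the squalene epoxidase, 2.88-fold, 1.49-fold and 1.82-fold.

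MSMO1, which oxidises the methyl groups of sterol intermediates, followed a course that LSS did not. It was at 239 and 279 CPM untreated and 258 and 259 CPM with UNC1999 at day 1, but at 70.3 CPM with MAK683 at day 1 and 73.2 CPM at day 3. At day 5 the MAK683 library held 189 CPM and the UNC1999 libraries 189 and 199 CPM. UNC1999 exceeded MAK683 by 3.68-fold and 1.99-fold at days 1 and 3. At day 5 the difference was log2 0.04 (95% interval -0.17 to 0.25). HSD17B7, a sterol ketone reductase, and SC5D, a sterol desaturase, also had a gap between the compounds that narrowed with time. With UNC1999, HSD17B7 was 2.79-fold and 1.99-fold higher at days 1 and 3, and SC5D 2.49-fold and 1.45-fold. At day 5 neither passed (log2 0.26, 95% interval -0.03 to 0.56, for HSD17B7, and log2 0.24, 0.01 to 0.47, for SC5D, adjusted p = 0.069).

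The lanosterol demethylase CYP51A1 was higher with UNC1999 by 3.39-fold, 1.67-fold and 1.56-fold, and DHCR7, a reductase at the end of the route, by 3.39-fold, 1.69-fold and 2.47-fold. The sterol reductase TM7SF2 differed 2.69-fold, 1.63-fold and 2.56-fold, the sterol dehydrogenase NSDHL 1.81-fold, 1.33-fold and 2.59-fold, and the sterol isomerase EBP 1.90-fold, 1.45-fold and 2.16-fold. LBR, a sterol reductase that is also a receptor of the nuclear lamina, was at 459 and 462 CPM with UNC1999 and 449 CPM with MAK683 at day 1. Its difference was log2 0.04 (95% interval -0.16 to 0.23) at day 1 and log2 -0.17 (-0.36 to 0.03) at day 3. At day 5 LBR was 1.90-fold higher with UNC1999, the MAK683 library having the lowest level of all 13 (271 CPM). Reads of genes with near-identical pseudogene copies, which FDPS, CYP51A1 and HSD17B7 are known to have, may have been divided between copies, so their single values are uncertain.

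**Figure D3:**
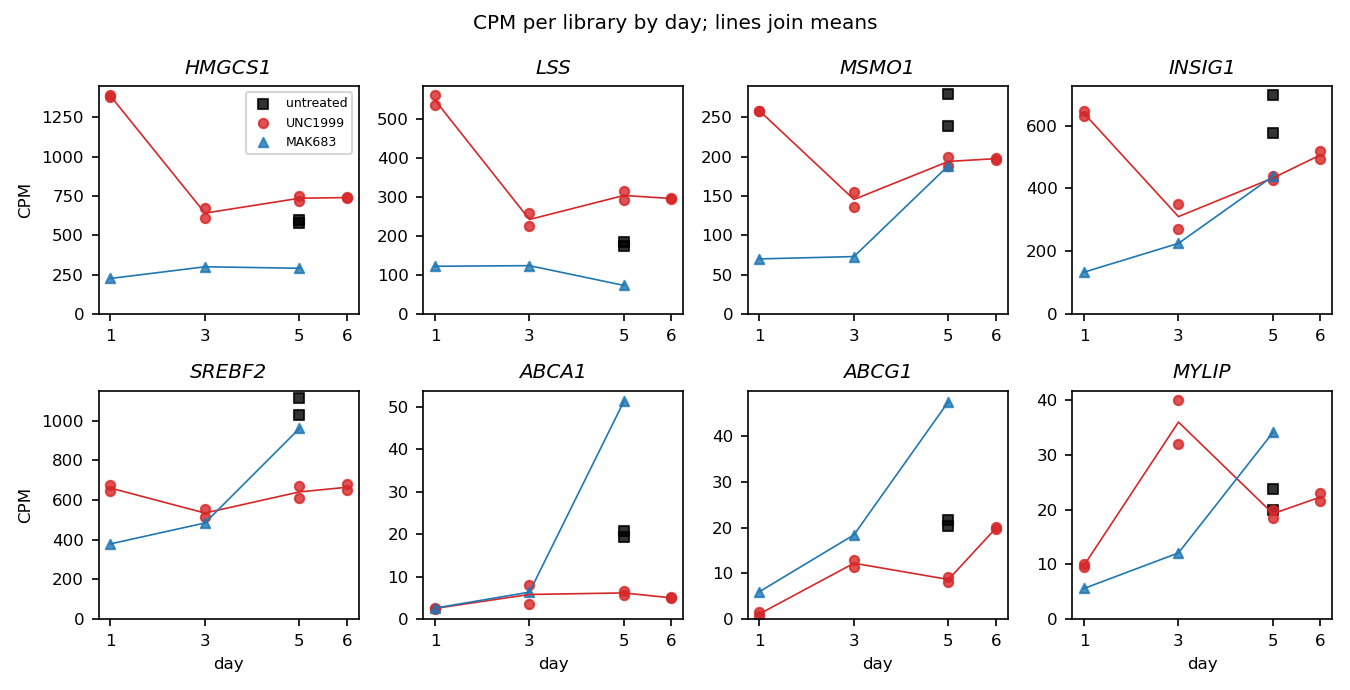
CPM by day (horizontal axis) of 8 genes in untreated, UNC1999 and MAK683 libraries, each point being 1 library, on vertical axes that differ between panels. HMGCS1 and LSS are highest with UNC1999 at day 1 and lowest with MAK683, MSMO1 and INSIG1 meet at day 5, and ABCA1, ABCG1 and MYLIP are at or near their highest in the MAK683 library of day 5.

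Of the sensing genes, SREBF2 and INSIG1 lay below the untreated level of day 5 with both compounds, though not on every day. SREBF2, which encodes SREBP2, was at 1032 and 1115 CPM untreated, at 678 and 644, 517 and 553, 673 and 610, and 650 and 680 CPM over the UNC1999 days, and at 379, 485 and 962 CPM with MAK683. All UNC1999 libraries and the MAK683 libraries of days 1 and 3 were below the untreated ones, and the MAK683 library of day 5 lay close to them. SREBF2 was 1.74-fold higher with UNC1999 than with MAK683 at day 1, did not pass at day 3 (log2 0.14, 95% interval -0.05 to 0.33), and was 1.5-fold lower at day 5. Its course thus ran apart from that of the enzymes. Over the 13 libraries the log2 CPM of SREBF2 had r = 0.15 with the mean of 17 synthesis enzymes (the 19 without LBR and TM7SF2). HMGCS1, itself among those enzymes, had r = 0.99 with the mean of the others. These libraries share their groups, so the values describe the pattern only.

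INSIG1, the retention factor of SCAP, was at 576 and 698 CPM untreated, at 647 and 632, 350 and 271, 440 and 427, and 495 and 518 CPM with UNC1999 at days 1, 3, 5 and 6, and at 134, 225 and 439 CPM with MAK683. The MAK683 library of day 1 was the lowest of all and by day 5 the compounds overlapped. The difference was 4.78-fold at day 1 (log2 2.26, SE 0.13, adjusted p = 1.31e-11) and 1.38-fold at day 3, and it did not pass at day 5 (log2 -0.02, 95% interval -0.26 to 0.23). The day 3 call was lost without UNC1999 replicate 1 (log2 0.27, adjusted p = 0.0834). SCAP itself differed by log2 0.14 at day 1 (95% interval -0.08 to 0.36), was 1.56-fold lower with UNC1999 at day 3, where the MAK683 library held 159 CPM against 95.4 and 108 CPM, and was 1.32-fold higher at day 5. INSIG2, a paralogue of INSIG1 at 9.25 to 18.4 CPM, was 1.69-fold higher at day 3 and 1.58-fold lower at day 5. Neither INSIG2 call held without 1 library, UNC1999 replicate 2 of day 3 (adjusted p = 0.0597) or replicate 1 of day 5 (adjusted p = 0.132).

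The transport genes changed order between day 3 and day 5. STARD4, a carrier of sterols through the cytosol, was at 59.8 CPM in both untreated libraries, at 32.3 to 41.4 CPM in the 8 UNC1999 libraries, and at 21.5, 20.4 and 58.4 CPM with MAK683. It was higher with UNC1999 by 1.92-fold and 1.67-fold at days 1 and 3 and 1.71-fold lower at day 5. MYLIP, a ubiquitin ligase that marks lipoprotein receptors for destruction, was at 23.8 and 19.9 CPM untreated, at 9.56 and 10.0, 32.01 and 39.98, 19.99 and 18.5, and 22.96 and 21.6 CPM with UNC1999, and at 5.59, 12.1 and 34.1 CPM with MAK683. Both compounds gave their lowest MYLIP level at day 1, and their highest came at day 3 for UNC1999 and at day 5 for MAK683. UNC1999 was above MAK683 by 1.75-fold and 2.98-fold at days 1 and 3 and below it by 1.77-fold at day 5. NPC2, which hands cholesterol to NPC1 in the lysosome, was 2.24-fold and 1.89-fold higher at days 1 and 3, with log2 -0.31 (95% interval -0.63 to 0.01) at day 5. NPC1 differed by log2 0.28 at day 1 (95% interval -0.05 to 0.61), was 1.44-fold higher at day 3 and 1.42-fold lower at day 5, and the last calls were lost without UNC1999 replicate 2 of day 3 (adjusted p = 0.0943) or replicate 1 of day 5 (adjusted p = 0.107).

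With both compounds, the efflux pumps at day 1 were below the untreated libraries, which are of day 5. At day 5 both pumps were lower with UNC1999 than with MAK683, and the gap had widened since day 1 for ABCA1. ABCA1, which loads cholesterol onto lipid-poor apolipoproteins, was at 20.6 and 19.2 CPM untreated, at 2.65 and 2.37, 3.64 and 7.94, 5.67 and 6.64, and 5.10 and 4.89 CPM with UNC1999 at days 1, 3, 5 and 6, and at 2.58, 6.34 and 51.2 CPM with MAK683. All treated libraries were below the untreated ones except the MAK683 library of day 5, which was the highest of the 13. The compounds did not differ beyond the test at day 1 (log2 -0.03, 95% interval -0.74 to 0.67) or day 3 (log2 -0.12, -0.71 to 0.47), and at day 5 ABCA1 was 8.32-fold lower with UNC1999 (log2 -3.06, SE 0.25). In the day 5 MAK683 library the myeloid markers summed to 4.6 CPM, the lowest of the 13 sums. Whether myeloid cells had a part in the ABCA1 level was not tested.

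ABCG1, which exports cholesterol to lipoprotein particles, was at 20.4 and 21.7 CPM untreated, at 0.648 and 1.62 CPM with UNC1999 at day 1 (21 and 47 counts), and at 11.4 and 12.99, 9.19 and 8.13, and 19.6 and 20.1 CPM at days 3, 5 and 6. With MAK683 it was at 5.998, 18.4 and 47.6 CPM. It was lowest in the UNC1999 libraries of day 1, was back near the untreated level at day 6, and was highest with MAK683 at day 5. ABCG1 was 5.38-fold lower with UNC1999 at day 1 (adjusted p = 1.66e-06) and 5.49-fold lower at day 5. The day 3 difference of 1.51-fold (adjusted p = 0.0432) was lost without either UNC1999 library of that day (adjusted p = 0.13 and 0.0514), with other scalings and with DESeq2 (adjusted p = 0.0838).

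Of the receptors, NR1H2 (LXR beta) differed between compounds by log2 -0.13 at day 1 (95% interval -0.40 to 0.13) and -0.29 at day 3 (-0.56 to -0.03, adjusted p = 0.102) and was 1.62-fold lower with UNC1999 at day 5. NR1H3 (LXR alpha), at 4.43 to 11.1 CPM, differed by log2 -0.22 at day 1 (95% interval -0.72 to 0.28) and 0.29 at day 3 (-0.23 to 0.82). Its 1.62-fold lower level at day 5 did not pass without UNC1999 replicate 1 (adjusted p = 0.0546) or replicate 2 (adjusted p = 0.0607) of that day.

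Set against the untreated libraries, most synthesis enzymes were higher with UNC1999 at day 1 and lower with MAK683 on each of its days. These comparisons share the same 2 untreated libraries, so each is given on its own. With UNC1999 at day 1, 17 of the 32 genes were higher and 8 lower, where 54.7% of all tested genes were called, 28.2% higher and 26.5% lower. The 17 were SCAP (1.25-fold) and 16 of the 19 synthesis enzymes, at a median log2 of 0.76 against -0.02 over all genes. ACAT2 was 3.79-fold higher, LSS 3.06-fold, TM7SF2 2.54-fold and HMGCS1 2.35-fold. FDFT1 (log2 0.09), MSMO1 (log2 -0.00) and SC5D (log2 0.08) did not pass, nor did INSIG1 (log2 0.01). The lower genes lay outside the enzymes: ABCG1 was 18.8-fold lower, ABCA1 7.91-fold, MYLIP 2.23-fold and SREBF2 1.62-fold, with STARD4, NR1H2, NPC1 and INSIG2 lower by less. Without the first untreated library the calls of LBR, SCAP and INSIG2 were lost (adjusted p = 0.465, 0.159 and 0.147), without the second that of NPC1 (adjusted p = 0.0573), and without UNC1999 replicate 2 that of IDI1 (adjusted p = 0.0531).

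With MAK683 at day 1, 3 of the 32 genes were higher and 23 lower, where 48.6% of all genes were called, 26.2% higher and 22.4% lower. The members' median log2 change was -0.71, against -0.04 over all genes. Of the synthesis enzymes 14 were lower and 3 higher: MSMO1 was 3.69-fold lower, FDFT1 2.60-fold, HMGCS1 2.59-fold and SC5D 2.36-fold, whereas PMVK was 1.79-fold higher, ACAT2 1.33-fold and NSDHL 1.25-fold. The NSDHL call (adjusted p = 0.0116) was lost without the first untreated library (log2 0.15), with RLE scaling, with both other count filters and with DESeq2. Those of EBP and NR1H2 were lost without the second untreated library (log2 -0.25 and -0.35). Regulators were lower in the same library, INSIG1 4.76-fold and SREBF2 2.83-fold, as were STARD4 2.78-fold, MYLIP 3.91-fold, ABCA1 7.73-fold and ABCG1 3.503-fold.

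On the later days the calls with UNC1999 were less one-sided than at day 1. With UNC1999, 10 genes were higher and 11 lower at day 3, where 57.1% of all genes were called (30.1% higher and 26.9% lower). At day 5, 14 were higher and 13 lower against 58.7% (31.3% and 27.4%), and at day 6, 13 and 9 against 58.2% (30.9% and 27.3%), so that a call was common among all genes too. The share of all genes called in the same direction on each of these days was not determined. ACAT2, MVK, PMVK, LSS, TM7SF2, NSDHL, EBP and DHCR7 were higher on each of these days, and MSMO1, SC5D, SREBF2, INSIG1, STARD4, ABCA1, NR1H2 and NR1H3 lower, of which the INSIG1 call of day 6 was lost without the second untreated library (adjusted p = 0.136) or UNC1999 replicate 1 (adjusted p = 0.0536). NR1H3 at day 3 was lost without the first untreated library (adjusted p = 0.217) or UNC1999 replicate 1 (adjusted p = 0.182). SREBF2 was 2.01-fold, 1.67-fold and 1.61-fold lower at days 3, 5 and 6.

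With MAK683, 4 genes were higher and 23 lower at day 3, where 48.4% of all genes were called (26.2% higher and 22.2% lower). The higher calls of ACAT2, PMVK and LBR were lost without the first untreated library (log2 0.21, 0.25 and 0.22), as was the lower call of NR1H3 (log2 -0.68). Those of GGPS1 and DHCR7 were lost without the second (log2 -0.35 and -0.18). By day 5, 4 genes were higher and 17 lower, where 29.6% of all genes were called (15.5% higher and 14.1% lower). At day 5, the day on which the untreated cells were also taken, 16 of the 19 synthesis enzymes were lower and 0 higher (17 and 0 at an unadjusted p under 0.05), with a median log2 of -0.63 against -0.00 over all genes. LSS was 2.43-fold lower, ACAT2 2.22-fold and HMGCS1 2.02-fold. The 4 higher genes at day 5 were ABCA1 (2.57-fold), ABCG1 (2.26-fold), NPC2 (1.83-fold) and MYLIP (1.56-fold). SREBF2 did not pass there (log2 -0.16, adjusted p = 0.213).

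**Figure D4:**
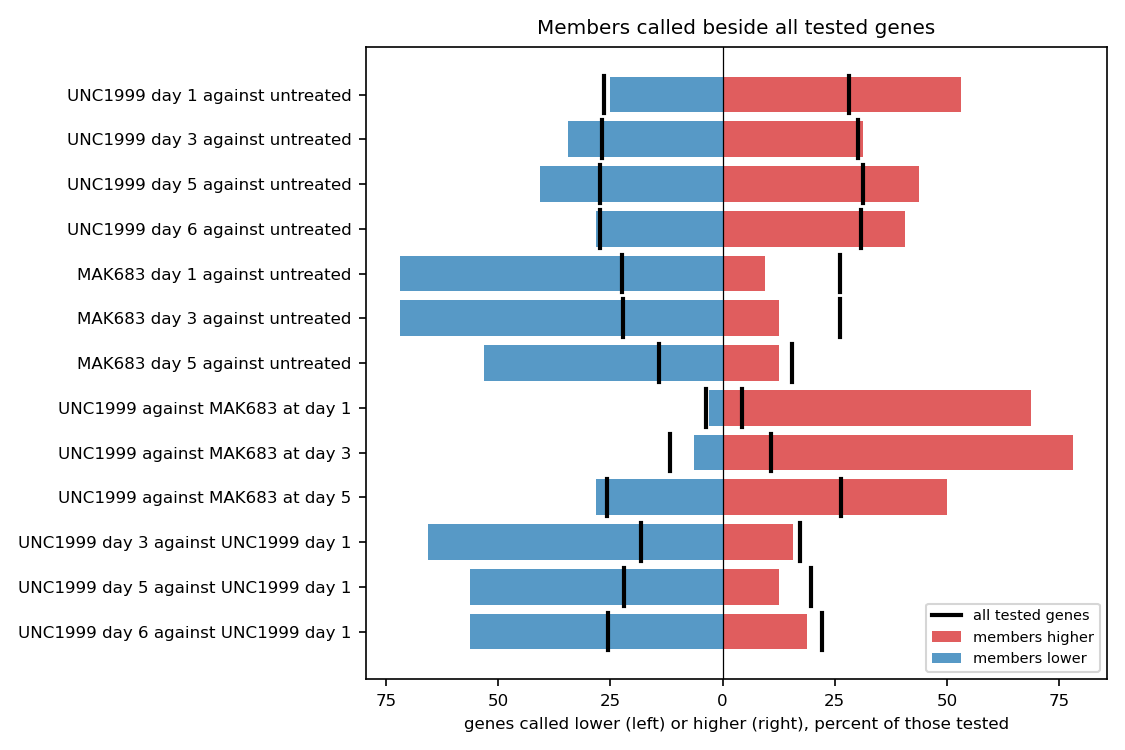
Share of the 32 genes called higher (bars to the right) and lower (bars to the left) in each comparison, in percent. Black lines mark the share of all 15278 tested genes. The shares of members exceed those lines most for higher calls in the direct comparisons of days 1, 3 and 5 and with UNC1999 at day 1 against untreated. They do so too for lower calls with MAK683 against untreated and with UNC1999 at later days against day 1. In the other bars they exceed the lines by less or lie below them.

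Within UNC1999, the enzyme levels of day 1 did not last at their height. Between days 1 and 3, 21 members fell and 5 rose, where 35.4% of all genes were called (18.2% lower and 17.2% higher). The members' median log2 change was -0.48, against -0.02 over all genes. LSS fell by 1.18, HMGCS1 by 1.11 and INSIG1 by 1.04 on the log2 scale, while ABCG1 rose by 3.45 and MYLIP by 1.88. ABCA1 rose by 1.21, a call lost without UNC1999 replicate 2 of day 3 (log2 0.54, adjusted p = 0.0974). Against day 1, 18 members were lower and 4 higher at day 5 (41.6%), and 18 lower and 6 higher at day 6 (47.5%).

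The compounds also changed differently with time. The difference between them in the change from day 1 to day 3 passed for 19 members (2 higher and 17 lower, against 9.82% of all genes, 4.57% higher and 5.26% lower), and in the change from day 1 to day 5 for 22 members (4 higher and 18 lower, against 41.8%, 21.6% and 20.2%). For HMGCS1 the gap between UNC1999 and MAK683 narrowed by day 5, with a log2 difference of -1.27. The log2 difference in change was -2.28 for INSIG1, whose gap closed. It was -1.38 for SREBF2, whose gap changed sign, and -3.02 for ABCA1, whose gap opened. The 4 genes called in the other direction, towards UNC1999, were PMVK (1.48), LBR (0.89), ACAT2 (0.75) and NSDHL (0.52).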

How the data were processed

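RNA was counted in 13 SUDHL10 libraries. Per the labels' protocols, these were TruSeq V2 libraries read as 50 bp single ends. The table the authors deposited holds whole-number counts per gene, not normalized. Per the submitters' processing notes, the series used STAR 2.5.3a, DESeq2, Bowtie2 2.3.4.3, SICER 0.0.1 and Cell Ranger 3.0.2, and mm9 is the build listed, with no role stated for any. How reads were counted per gene, and with which annotation and human build, is not given in the sources used. The 2 untreated columns share a single header and carry no replicate number.

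In edgeR 4.0.16 (R 4.3.3), all libraries were fitted together, with group means by compound and day. Genes were filtered with filterByExpr and libraries scaled by TMM. The quasi-likelihood F test was used, and p-values were adjusted by Benjamini-Hochberg over 15278 genes, with calls at 0.05. Every adjusted p is from this test unless another is named. Residual degrees of freedom were 5 and prior degrees of freedom 18.6, with a common biological coefficient of variation of 0.0927. SE was taken as the absolute log2 fold change over the root of F. CPM uses TMM effective library sizes. Replicates differed by more than counting noise (lowest chi-square per degree of freedom 5.78). The method was tested on simulated data in which all genes and libraries, those of MAK683 included, shared the same spread and few genes changed. For UNC1999 against MAK683 at day 1, over 11669 genes, 89 of 100 genes changed 2-fold and 45 of 100 changed 1.5-fold were recovered. There were 12 false calls (8.22% of calls). The simulation could not test whether a single MAK683 library varies as the other groups do, because that was built in.

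All 32 genes are named, in pathway order, with up to 6 other genes of 4 lists of the pathway by smallest adjusted p, and the 8 genes of mean log2 CPM of at least 3 most correlated with the mean of 17 synthesis enzymes (without LBR and TM7SF2). The genes and lists were chosen with earlier results of these data known. TCP1 was added after its values were seen. A few genes given by that rule are not reported here. Alternatives were other scalings and filters, DESeq2 1.42.0, the libraries of the compared groups only, each replicate left out, a replicate block and adjustment over the 3 direct comparisons together. A fit without the MAK683 library of day 5 was chosen after seeing the data.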

Additional observations from a re-analysis of the deposited data

Results flagged for a closer look

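The compounds differed in how the cholesterol genes changed with time, by a test of the difference itself (edgeR's quasi-likelihood test on the interaction). From day 1 to day 3 this held for 19 of the 32 genes, against 9.82% of all tested genes, and from day 1 to day 5 for 22, against 41.8%, so that a call over the longer span is common among all genes. Negative values mean that UNC1999 lost ground to MAK683.

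From day 1 to day 3 the log2 difference in change was -1.52 for HMGCS1 and -1.79 for INSIG1. For ABCG1 it was 1.84, its level rising more with UNC1999. From day 1 to day 5 it was -1.71 for MVD, -1.84 for MSMO1 and -2.28 for INSIG1. Of the genes outside the route, STARD4 had -1.71, MYLIP -1.63 and ABCA1 -3.02. All these values rest on the single MAK683 library of day 1, together with the single one of day 3 or of day 5. The part of those libraries in them was not tested.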

How the results depend on the processing

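In all 15 comparisons the number of members called stayed within 1.5 times its value under every alternative that was run, and no member's called change reversed. With each library left out in turn, the members called between the compounds ranged from 23 to 23 at day 1, 24 to 26 at day 3 and 23 to 24 at day 5. The MAK683 libraries, being single, could not be left out of their own comparisons. Of 357 member calls, 52 were lost without 1 library, 8 of them among the 75 calls between the compounds. Replicate numbers did not pair the UNC1999 libraries (deviations correlated at -0.0418 to 0.0235 between days). With a replicate block the compounds differed at 23, 26 and 26 members at days 1, 3 and 5, and DESeq2 gave 23, 26 and 26. The untreated columns carry no number, so no paired analysis was possible for them. Without the MAK683 library of day 5, chosen after seeing the data, 23 and 26 members were called at days 1 and 3. Library-size scaling in place of TMM moved the median of all genes by less than 0.1 on the log2 scale. Depth limits ABCG1 at day 1 of UNC1999 most, with 21 and 47 counts.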

Other observations

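Other genes of the pathway, from 4 lists, were compared between the compounds at days 1, 3 and 5. Of all tested genes, 4.40% were higher with UNC1999 and 3.65% lower at day 1, 10.8% and 11.8% at day 3, and 26.4% and 25.7% at day 5. Of 12 sensing and processing genes 3 were higher with UNC1999 and none lower at day 1, 3 higher and 2 lower at day 3, and 5 higher and 3 lower at day 5. Of 12 tested genes of cholesterol handling 1, 2 and 6 were higher and 0, 1 and 4 lower over those days. Of 8 genes of electron donors and acetyl-CoA supply 2, 2 and 4 were higher and 0, 0 and 2 lower. Of 12 genes of isoprenoid branches 0 were called at day 1 by edgeR's quasi-likelihood test (1 higher and 1 lower at an unadjusted p under 0.05), 2 were lower at day 3, and 7 were higher and 2 lower at day 5.

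TMEM97, the sigma-2 receptor, which binds NPC1, was higher with UNC1999 by 2.08-fold, 1.48-fold and 2.46-fold at days 1, 3 and 5. CYB5B, a cytochrome b5, was higher by 1.28-fold, 1.28-fold and 2.19-fold. The others of the 6 with the smallest adjusted p passed at day 5 and not at days 1 or 3: PDSS1, which makes the tail of coenzyme Q, by 5.64-fold, ICMT and ZMPSTE24, which process prenylated proteins, by 3.54-fold and 2.68-fold, and PGRMC1, a heme-binding membrane protein, by 2.59-fold. Each of the 6 was lowest in the single MAK683 library of day 5, which lay below both untreated libraries. ICMT was at 154 and 140, 143 and 145, and 142 and 134 CPM with UNC1999 at days 1, 3 and 5. With MAK683 it was at 156, 166 and 38.9 CPM, and at 57.7 CPM in both untreated libraries.

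Among 8954 genes outside the 32, those whose log2 CPM followed the mean of 17 synthesis enzymes most closely over the 13 libraries included MMAB, a vitamin B12 enzyme, at r = 0.952. MMAB was at 118 and 109 CPM with UNC1999 at day 1 and at 44.5 CPM with MAK683. C14orf1 followed at r = 0.882, FCER2, a B cell receptor for IgE, at 0.858, PCYT2, an enzyme of phosphatidylethanolamine synthesis, at 0.855, SCD, the fatty acid desaturase, at 0.842 and SLC25A33 at 0.840. The libraries share groups, and these values are descriptions. Of the 32 genes themselves ABCG1 had the lowest correlation (r = -0.613), then ABCA1 (r = -0.46).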
